A study of Mus musculus with 7 samples.

Results

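The BCL2 family genes set how readily a cell dies through its mitochondria, and 10 of them were followed here in fetal blood progenitors with Brd9 deleted. They were chosen by symbol as 4 survival genes (Mcl1, Bcl2l1, Bcl2, Bcl2a1b), 2 effector genes (Bak1, Bax) and 4 BH3-only genes (Bid, Bcl2l11, Bbc3, Pmaip1). All 10 had a row among the 35976 gene symbols of the count table, and 9 of them had enough reads to be tested; Bcl2a1b did not. Brd9 encodes a bromodomain protein found in the non-canonical form of the BAF chromatin remodeller.

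The study compared CD45.2(+) Vav1-iCre Brd9fl/fl embryos, 4 libraries called knockouts below, with CD45.2(+) Brd9fl/fl embryos, 3 libraries called controls. Both groups were C57BL/6 and carried the same loxP-flanked Brd9 alleles, so the groups differed in the Vav1-iCre transgene, which is active throughout blood cells. All control libraries lacked the recombinase, so its own effects and those of Brd9 loss cannot be told apart. PolyA RNA came from fetal liver cells at E14.5, after magnetic removal of cells bearing mature lineage markers; whether a library is 1 embryo or a pool is not given.

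Libraries held between 18748885 and 23571878 counts. Brd9 stood at 8.57 to 13.2 CPM (reads of a gene relative to all reads of its library, after TMM scaling) in the knockouts and at 30.6 to 36.5 CPM in the controls, which fits the genotype given for each library. Kit, the stem cell factor receptor that marks progenitors, was present in every library, at 160 to 212 CPM in the knockouts and 267 to 313 CPM in the controls. The 11 stem and progenitor markers, Kit among them, summed to 583 to 800 CPM in the knockouts and 768 to 1031 CPM in the controls, with overlap. Of these markers 4 were higher and 7 lower in the knockouts. The main test described below called 0 of them, against 0.559% of all tested genes. DESeq2 called 1, Kit, lower in the knockouts (adjusted p = 0.00027, DESeq2), against 2.55% of the same genes. The groups did not overlap in 2 of the 11 markers, Kit among them, against 11.2% of all tested genes. Hepatocyte RNA was abundant too, with 10 marker genes summing to 13243 to 23462 CPM in the knockouts and 10358 to 18271 CPM in the controls. The 19 neutrophil markers summed to 1715 to 3889 CPM in the knockouts and 5078 to 9034 CPM in the controls, with no overlap. Mpo made up much of these sums, with a mean of 1122 CPM in the knockouts and 3508 CPM in the controls. Of the 18 tested neutrophil markers 17 were lower and 1 higher, and the main test called 8, against 0.559% of all tested genes. The groups did not overlap in 9 of the 18, against 11.2% of all tested genes. Knockout replicate 3 stood apart in its 9 lymphoid markers, which summed to 58.1 CPM there, against 7.04 to 9.46 CPM in the other knockouts and 4.52 to 6.42 CPM in the controls. In such bulk RNA, fewer cells of a type and less RNA per cell cannot be told apart.

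As background, the survival proteins hold the effectors BAX and BAK in check at the outer mitochondrial membrane. BH3-only proteins, induced or activated by stress, bind the survival proteins through a short helix, the BH3 domain, and some also engage the effectors directly. Once BAX and BAK form pores, cytochrome c escapes, the APAF1 apoptosome activates caspase-9, and the executioner caspases dismantle the cell. In mice, blood stem cells and progenitors depend on MCL1, and maturing red cells and platelets on BCL-XL, the product of Bcl2l1.

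The family is tied together by the BH3 core. Coding bases matched to its leucine and aspartate are shown for 9 of the members, and those of Pmaip1 are not shown. Except in the Bcl2a1b line, the capitals mark the codons of the conserved leucine and the conserved aspartate. The Bcl2a1b line was found by a looser match, with leucine before the aspartate where the other lines have glycine or alanine. Whether its marked codons are those of the BH3 core was not tested. The sequences are from GENCODE M21 transcripts on GRCm38, are read 5′ to 3′ along the coding strand, and run for 27 bases in 1 exon.

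Mcl1 (chr3:95659436-95659462, plus strand): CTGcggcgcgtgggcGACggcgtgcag

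Bcl2l1 (chr2:152829697-152829723, minus strand): CTGagagaggcaggcGATgagtttgaa

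Bcl2 (chr1:106712575-106712601, minus strand): CTCcgccgggctgggGATgacttctct

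Bcl2a1b (chr9:89199513-89199539, plus strand): CTGaagtcatacttgGATgactttcac

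Bak1 (chr17:27022531-27022557, minus strand): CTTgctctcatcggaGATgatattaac

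Bax (chr7:45465997-45466023, minus strand): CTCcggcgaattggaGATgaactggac

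Bid (chr6:120897289-120897315, minus strand): CTCgcccaaataggcGATgagatggac

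Bcl2l11 (chr2:128147150-128147176, plus strand): CTGcggcggatcggaGACgagttcaac

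Bbc3 (chr7:16313773-16313799, plus strand): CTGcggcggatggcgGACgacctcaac

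No BCL2 family gene passed the test between knockouts and controls. Of the 9 tested members 0 were called changed in edgeR's quasi-likelihood test, where a call is a Benjamini-Hochberg adjusted p under 0.05 over the 14679 tested genes. Over all tested genes 82 were called (0.559%), 80 of them lower (0.545%). At an unadjusted p under 0.05 there was 1 member, Pmaip1, a share to be read against 10.9% of all tested genes, and DESeq2 called 0 members, against 2.55% of the same genes. A count of 0 among 9 is near what the share over all genes gives, so it is not a result about the family, and Bcl2a1b was not in the main test. The members' median log2 fold change, knockout over control, was 0.05, with 6 above and 3 below 0, against a median of 0.01 over all tested genes. The median size of the log2 fold change regardless of sign was 0.14 for the members and also 0.14 for all tested genes. The groups did not overlap in 1 of the 9 members, Bid, against 11.2% of all tested genes.

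**Figure D1:**
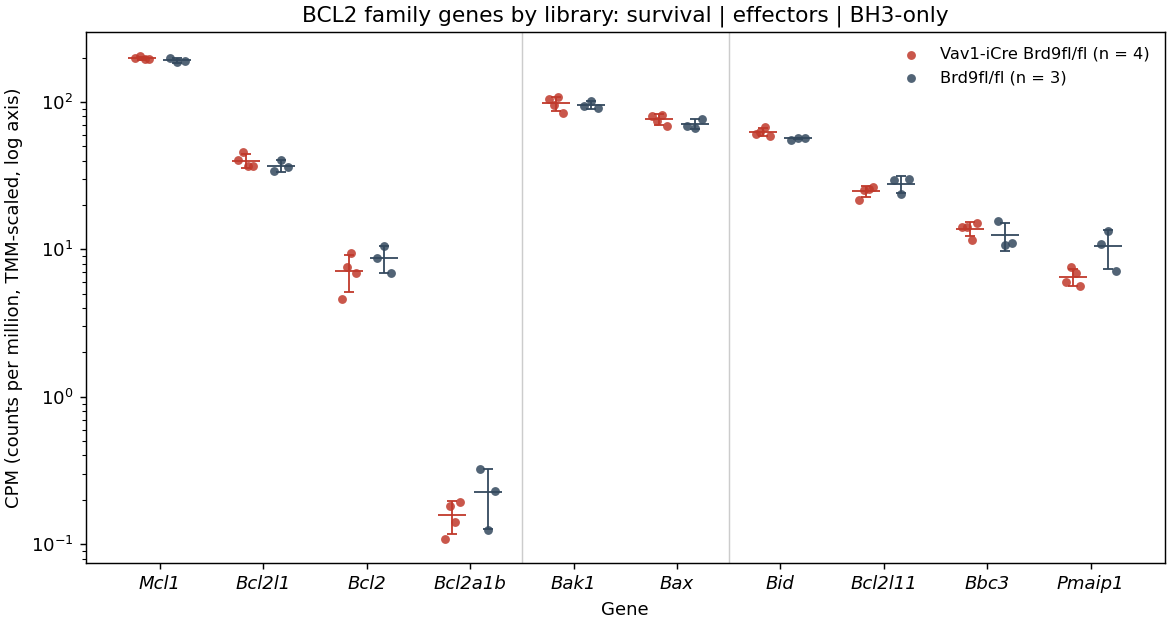
Level of each BCL2 family gene in CPM on a log axis, 1 point per library, with the knockouts (n = 4) left of the controls (n = 3); bars give the mean and SD. The groups interleave for every gene except Bid, whose knockouts lie between 58.7 and 67.8 CPM and all above the controls.

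Mcl1 had the highest level per kilobase of annotated exon of the 10 genes. On the RPKM scale, which divides CPM by the kilobases of annotated exon, it averaged 57.9 ± 1.3 in the knockouts and 55.9 ± 1.8 in the controls (SD, n = 4 and 3). The order then ran Bax, Bak1, Bid, Bcl2l1, Bbc3, Bcl2l11, Pmaip1, Bcl2 and Bcl2a1b. The ranges over the 7 libraries overlapped for Bax and Bak1 and for Bcl2l11 and Pmaip1, so those neighbours are not ordered beyond their spread. Bcl2 averaged 0.781 ± 0.222 RPKM in the knockouts and 0.957 ± 0.197 RPKM in the controls, the lowest of the members that could be tested. The annotation behind the deposited counts is not given in the sources used here, and these levels depend on the exon lengths used.

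Among the survival genes, Mcl1 was the steadiest across libraries. It had 199, 204, 195 and 194 CPM in knockout replicates 1 to 4, against 198, 186 and 190.0 CPM in control replicates 1 to 3. Its fold change was 1.04, with a 95% interval from 0.934 to 1.15 (adjusted p = 0.822 in edgeR's quasi-likelihood test), so a change of 1.5-fold either way lies outside that interval.

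Bcl2l1, which encodes BCL-XL, had 40.1, 45.7, 37.0 and 36.8 CPM in the knockouts and 34.2, 40.7 and 36.1 CPM in the controls. The highest knockout, replicate 2, lay above every control, and the other knockouts lay within the control range. The fold change was 1.08, with a 95% interval from 0.912 to 1.27 (adjusted p = 0.755, edgeR). The 14 erythroid markers summed to 4572 to 6019 CPM in the knockouts and 3050 to 5013 CPM in the controls, with overlap. Of these markers 11 were higher and 3 lower in the knockouts. The main test called 0 of them, against 0.559% of all tested genes. DESeq2 called 4, of which Car2 was lower, against 2.55% of the same genes. The part of red cells in the level of Bcl2l1 was not tested.

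Bcl2, the founding survival gene, best known in lymphocytes, was the most variable of the tested survival genes. The knockouts had 4.59, 7.59, 9.52 and 6.92 CPM and the controls 8.80, 10.6 and 6.94 CPM. Knockout replicate 1 lay lowest, and knockout replicate 3, the library with the most lymphoid marker RNA, was the highest knockout; the part of those cells was not tested. The fold change of 0.817 had a 95% interval from 0.557 to 1.20 (adjusted p = 0.712, edgeR), so for Bcl2 a fall of 1.5-fold remains inside the interval.

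Bcl2a1b is a copy of A1, a survival gene of myeloid and activated lymphoid cells. It had 2, 4, 3 and 4 counts in the knockouts and 7, 3 and 5 counts in the controls, 13 and 15 in all, too few for the main test. Without the filter on low counts its log2 fold change was -0.50 (adjusted p = 0.839 over 24342 genes, edgeR). No difference was detected at these counts.

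The mouse carries several A1 copies with similar coding sequences, so these few reads could be hard to assign. How many reads were affected was not measured. Bcl2a1b shares 97.9% of its 516 coding bases with Bcl2a1a and 98.8% with Bcl2a1d; of the 50-base windows along its GENCODE transcript, 57.6% occur unchanged in another copy. The first 60 coding bases hold 6 of the 12 positions at which these 3 copies differ, marked in capitals below (GRCm38, read along the coding strand).

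Bcl2a1a (chr9:88957051-88957110, plus strand): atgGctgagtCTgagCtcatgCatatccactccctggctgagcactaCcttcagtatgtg

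Bcl2a1b (chr9:89199360-89199419, plus strand): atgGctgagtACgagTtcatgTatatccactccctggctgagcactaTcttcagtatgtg

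Bcl2a1d (chr9:88731660-88731719, minus strand): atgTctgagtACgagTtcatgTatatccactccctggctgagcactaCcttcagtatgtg

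Bcl2a1a had 14 counts over the knockouts and 16 over the controls, Bcl2a1d had 4 and 9, and Bcl2a1c had 0 in every library. The 4 copies together held 3, 9, 11 and 8 counts in the knockouts and 10, 15 and 15 in the controls. How reads that match several places were counted is not given in the sources used here, and 401 of the 817 annotated exon bases of Bcl2a1b overlap Gm29094 on the same strand. Both could have cost it reads, so its low level is uncertain. Neutrophils and macrophages use A1, and the neutrophil marker sum given above was lower in the knockouts, though not every marker was. The part of these cells in these counts was not tested.

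Both effector genes were well expressed and near equal between groups. Bax, a cytosolic protein that moves to mitochondria when activated, had 80.5, 74.3, 81.9 and 68.4 CPM in the knockouts and 68.6, 66.8 and 77.0 CPM in the controls. Knockout replicates 1 and 3 lay above every control and the other knockouts within the control range. The fold change was 1.08 (95% interval 0.937 to 1.24; adjusted p = 0.710, edgeR).

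Bak1, whose protein sits in the mitochondrial membrane already, had 105, 94.9, 108 and 83.6 CPM in the knockouts and 94.4, 101 and 90.5 CPM in the controls. Knockouts lay on either side of the control range. Its fold change of 1.02 (95% interval 0.880 to 1.19; adjusted p = 0.925, edgeR) was the nearest to 1 among the tested members, and its sign depended on which library was left out. Exons of Bak1 overlap an antisense neighbour, Ggnbp1, in the annotation, and the strand setting of the counting is not given in the sources used here.

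The BH3-only genes held the members with the smallest p-values, Pmaip1 and Bid, which pointed in opposite directions. Pmaip1 encodes NOXA, a p53 target that binds MCL1 and A1 in preference to the other survival proteins. It lies on chromosome 18 from 66458533 to 66465565, plus strand (GRCm38). The knockouts had 6.01, 7.59, 6.92 and 5.65 CPM, against 10.8, 13.4 and 7.17 CPM in the controls. Control replicate 3 lay inside the knockout range, and the other controls lay above all knockouts.

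The log2 fold change of Pmaip1 was -0.68 (SE 0.22), a fold change of 0.625 with a 95% interval from 0.445 to 0.878. That interval is for 1 gene on its own; over all tested genes the adjusted p was 0.284 (edgeR's quasi-likelihood test), and the gene was not called. The log2 fold change was -0.46 without control replicate 2 and -0.89 without control replicate 3, so these controls decide its size. The log2 ratio of Mcl1 to Pmaip1 within a library, from CPM and not corrected for length, was 5.05, 4.75, 4.82 and 5.10 in the knockouts and 4.19, 3.79 and 4.73 in the controls. All knockouts lay above all controls in this ratio, narrowly so at control replicate 3 (4.75 against 4.73), and no test was made of it. Mcl1 varied little, so the ratio largely repeats the level of Pmaip1. The other ratios computed between members overlapped between the groups. That of Mcl1 to Bcl2l11, for example, was 2.87 to 3.20 in the knockouts and 2.66 to 2.97 in the controls.

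By a rule of likeness, the tested genes outside the family whose log2 CPM over the 7 libraries, each centred on its mean, ran closest to Pmaip1 were Ino80dos, AI429214 and Dusp2. Their root-mean-square differences from it were 0.14, 0.16 and 0.16 on the log2 scale. Dusp2, a phosphatase of activated blood cells that acts on MAP kinases, had 12.0, 15.8, 15.8 and 15.0 CPM in the knockouts and 20.4, 25.2 and 16.3 CPM in the controls. In Dusp2 as in Pmaip1, control replicate 3 was the lowest control and control replicate 2 the highest. That shared order follows from the choice by likeness and is not a separate result. None of these 3 genes was called (adjusted p = 0.326 to 0.575 in edgeR).

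Bid encodes a protein that caspase-8 cleaves, which links death receptors to mitochondria. The knockouts had 60.7, 62.1, 67.8 and 58.7 CPM and the controls 55.6, 57.0 and 57.0 CPM. All knockouts lay above all controls, but the step was small, at a fold change of 1.10 with a 95% interval from 0.979 to 1.24 (adjusted p = 0.572, edgeR). Its last exons overlap those of Bcl2l13 on the opposite strand, which had a fold change of 0.967 (adjusted p = 0.858, edgeR).

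Bcl2l11 encodes BIM, which binds all survival proteins and drives the death of blood cells deprived of cytokines. It had 21.6, 25.4, 25.5 and 26.5 CPM in the knockouts and 29.6, 23.7 and 30.1 CPM in the controls. Control replicate 2 lay inside the knockout range and the other controls above it. The fold change was 0.891 (95% interval 0.737 to 1.08; adjusted p = 0.669, edgeR).

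Bbc3 encodes PUMA, a p53 target like NOXA that binds all survival proteins. The knockouts had 14.1, 14.1, 11.6 and 15.1 CPM and the controls 15.6, 10.7 and 11.1 CPM, and the groups interleaved. Its fold change was 1.10 (95% interval 0.847 to 1.43; adjusted p = 0.799, edgeR), on the other side of 1 from that of Pmaip1.

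**Figure D2:**
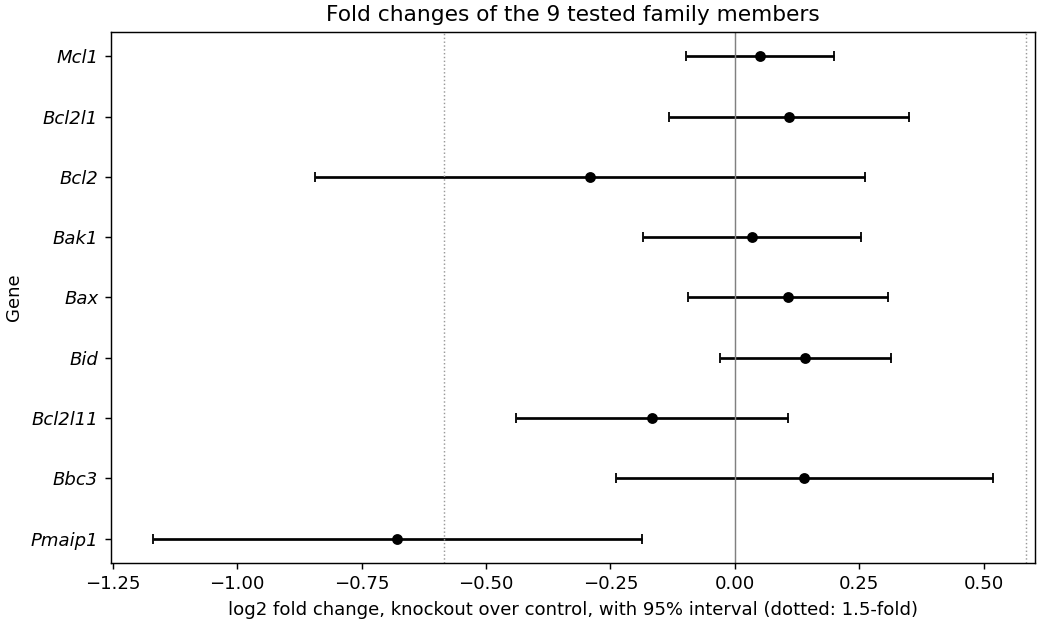
Log2 fold change, knockout over control, with 95% interval for the 9 tested family members, ordered by role; dotted lines mark 1.5-fold. The intervals of 7 members lie inside the dotted lines, and those of Bcl2 and Pmaip1 cross the lower one.

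In 7 of the 9 tested members the 95% interval lay within 1.5-fold in either direction, against 57.2% of all tested genes, and in 8 it lay within 2-fold, against 78.5%. The exceptions at 1.5-fold were Bcl2 and Pmaip1, the tested members with the fewest counts. The authors' deposited table, also made with DESeq2, gave 0 of the 10 members an adjusted p under 0.05 among 382 genes so listed. The DESeq2 fit made here also called 382 genes and gave Pmaip1 and Bid the same values. The deposited table is therefore not separate support. In the authors' deposited table Pmaip1 had a log2 fold change of -0.68 with an adjusted p of 0.125, and Bid 0.14 with an adjusted p of 0.743.

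Outside the members, 6 further lists of apoptosis genes gave 67 genes that are reported here, 60 of them tested. Of these 1 fell, Casp1, and 0 rose, against 0.559% called over all tested genes. At an unadjusted p under 0.05, 5 were higher and 6 lower, against 3.95% and 6.9% of all tested genes. DESeq2 called 4, against 2.55% of all tested genes. The groups did not overlap in 12 of the 60, against 11.2% of all tested genes. The same shares apply to each list below. The lists were written with earlier results of these data known, so their counts are descriptions.

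Casp1, the inflammatory caspase that matures interleukin-1 beta and is used by myeloid cells, fell in the knockouts. It had 2.35, 2.94, 3.74 and 3.61 CPM in the knockouts and 6.64, 11.4 and 7.86 CPM in the controls, without overlap. The log2 fold change was -1.45 (SE 0.24, adjusted p = 0.036, edgeR). That call was lost in 5 of the 7 fits that left out a library, namely the fits without knockout replicates 1, 2 and 4 and without control replicates 2 and 3, with adjusted p between 0.092 and 0.134 (edgeR) and log2 fold changes between -1.52 and -1.20. It also missed the threshold in limma-voom (log2 fold change -1.43, adjusted p = 0.052). Macrophage markers, 12 genes, summed to 89.6 to 172 CPM in the knockouts and 235 to 320 CPM in the controls. Monocyte markers, 8 genes, summed to 27.4 to 81.2 CPM in the knockouts and 137 to 239 CPM in the controls. A large part of that sum was F13a1, at 3.71 to 10.7 CPM in the knockouts and 67.1 to 115 CPM in the controls. It was the 1 monocyte marker called in edgeR, against 0.559% of all tested genes. The groups did not overlap in 4 of the 8 monocyte and 7 of the 12 macrophage markers, against 11.2% of all tested genes. The part of macrophages, monocytes and neutrophils in the level of Casp1 was not tested.

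**Figure D3:**
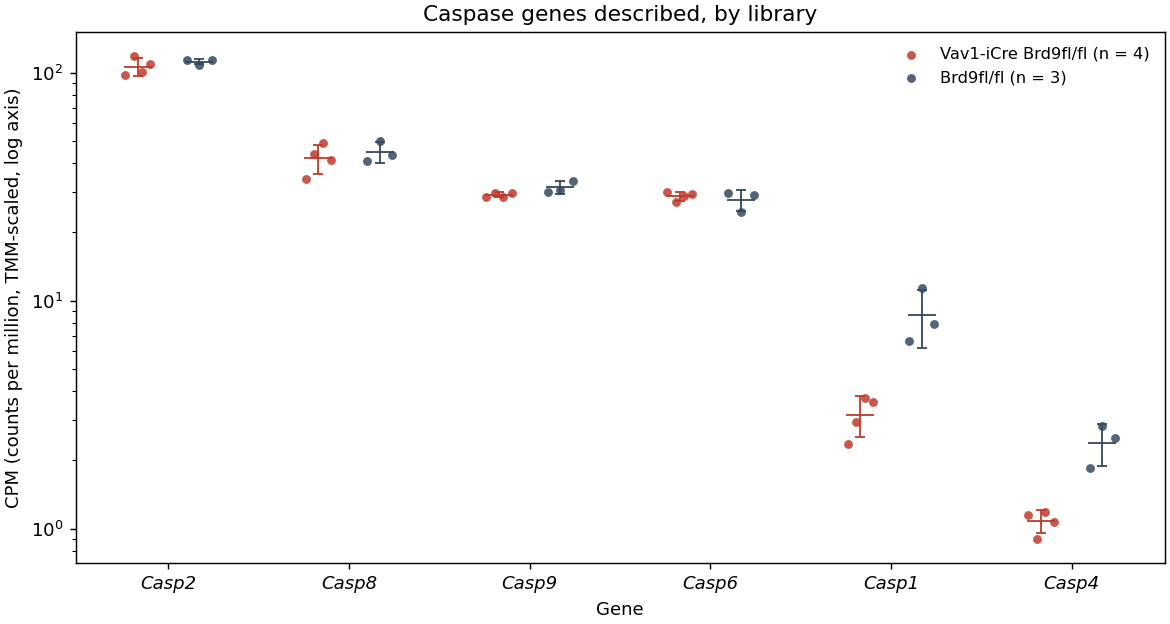
Levels of 6 tested caspase genes in CPM on a log axis, 1 point per library, knockouts (n = 4) left of controls (n = 3), with mean and SD. The knockouts lie below all controls for Casp1 and Casp4, and by under 1 CPM for Casp9; Casp2, Casp8 and Casp6 overlap between the groups.

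The other reported genes of the caspase list, caspases and the nuclease genes Dffa and Dffb, did not pass. Of 8 tested genes 1 fell and 7 were not called, and the median log2 fold change was -0.08. Casp4, the neighbour of Casp1 on chromosome 9 and the mouse sensor of bacterial lipopolysaccharide inside cells, averaged 1.08 ± 0.125 CPM in the knockouts and 2.38 ± 0.49 CPM in the controls (adjusted p = 0.106 in edgeR, 0.033 in DESeq2). Casp9, the initiator on the apoptosome, had a fold change of 0.926 with a 95% interval from 0.807 to 1.06 (adjusted p = 0.693, edgeR). Casp8, the initiator below death receptors that cleaves BID, had 34.2, 43.8, 49.1 and 41.2 CPM in the knockouts and 40.9, 49.9 and 43.6 CPM in the controls, which interleaved (adjusted p = 0.839, edgeR).

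Around the mitochondrion, 0 of 10 tested release and apoptosome genes were called. At an unadjusted p under 0.05, 3 were higher and 1 lower, against 10.9% of all tested genes in either direction, and DESeq2 called 0, with a median log2 fold change of 0.12. Apaf1, the scaffold of the apoptosome, had 62.8, 68.6, 53.1 and 66.7 CPM in the knockouts and 67.9, 92.0 and 79.3 CPM in the controls (adjusted p = 0.330, edgeR). Vdac1, an outer membrane channel, averaged 421 ± 41 CPM in the knockouts and 353 ± 16 CPM in the controls (adjusted p = 0.364, edgeR).

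The rest of the BCL2 family held no call. Of 16 further family symbols 11 were tested and 0 called (1 higher at an unadjusted p under 0.05, 0 by DESeq2), with a median log2 fold change of 0.08. Bmf, a BH3-only gene, had 3.88, 4.65, 4.26 and 4.05 CPM in the knockouts and 2.67, 3.56 and 2.62 CPM in the controls, with no overlap (fold change 1.42, adjusted p = 0.393, edgeR). Bnip3, a mitochondrial protein of mitophagy and hypoxia, averaged 44.1 ± 3.5 CPM in the knockouts and 37.4 ± 4.2 CPM in the controls (adjusted p = 0.469, edgeR).

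Of 8 tested inhibitor of apoptosis genes 0 were called. Their median log2 fold change was -0.18, and 7 were below 0, as were 47.6% of all tested genes. At an unadjusted p under 0.05, 1 was lower, and DESeq2 called 1, Naip2. Naip2, a sensor of bacterial proteins in the inflammasome despite its family name, averaged 26.4 ± 2.6 CPM in the knockouts and 39.2 ± 8.0 CPM in the controls (adjusted p = 0.156 in edgeR, 0.027 in DESeq2). Naip5, which recognises flagellin, averaged 11.8 ± 3.6 CPM in the knockouts and 17.5 ± 6.3 CPM in the controls (adjusted p = 0.556, edgeR); the Naip genes are closely similar copies whose reads the counting could have split.

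In the death receptor list, 0 of 11 tested genes were called in edgeR (1 higher and 2 lower at an unadjusted p under 0.05, against 10.9% of all tested genes in either direction; DESeq2 called 1, Tnfrsf1b), with a median of -0.16. Tnfrsf1b, a TNF receptor of blood cells, had 15.7, 18.9, 19.8 and 18.5 CPM in the knockouts and 23.9, 36.0 and 29.7 CPM in the controls (adjusted p = 0.083 in edgeR, 0.0018 in DESeq2). Tnfrsf1a, the TNF receptor with a death domain, averaged 35.3 ± 4.1 CPM in the knockouts and 50.1 ± 10.5 CPM in the controls (adjusted p = 0.226, edgeR). The groups did not overlap in 4 of the 11 tested genes, against 11.2% of all tested genes. These were both receptors and Tradd, lower in the knockouts, and Fadd, higher in the knockouts.

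Genes that regulate MCL1 or the BH3-only proteins had the narrowest spread of the 6 lists, with log2 fold changes from -0.14 to 0.11. All 12 were tested, 0 were called and 0 reached an unadjusted p under 0.05 or a DESeq2 call, with a median of -0.04. Stat5b, a transcription factor of cytokine signalling, averaged 159 ± 8 CPM in the knockouts and 173 ± 9 CPM in the controls (adjusted p = 0.610, edgeR). Dynll2, a dynein light chain that binds BMF, averaged 112 ± 12 CPM in the knockouts and 104 ± 4 CPM in the controls (adjusted p = 0.726, edgeR).

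**Figure D4:**
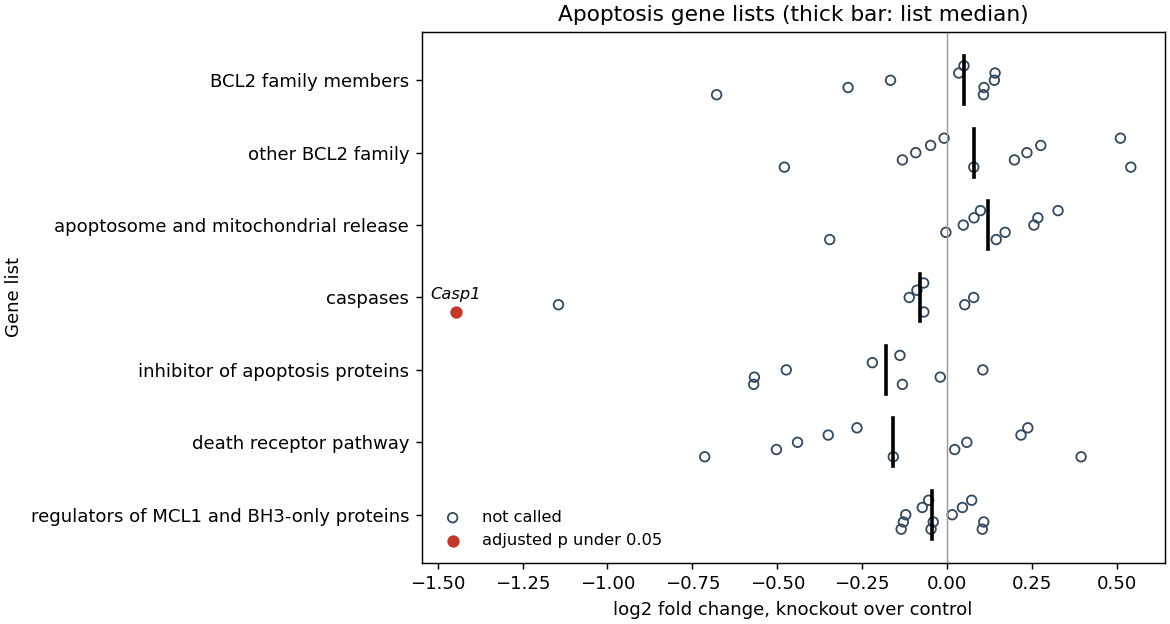
Log2 fold change, knockout over control, of each tested and reported gene in the BCL2 family and in 6 other apoptosis lists; filled points are called at an adjusted p under 0.05 and thick bars are list medians. Casp1 is the filled point, at -1.45, and the family members range from -0.68 to 0.14.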

How the data were processed

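RNA of lineage-negative fetal liver cells was sequenced in 4 knockout and 3 control libraries, polyA-selected with the TruSeq Stranded mRNA kit per the labels' protocols. Reads were aligned to mm10 with HISAT2 and counted with featureCounts, per the submitters' processing notes; their versions, the annotation and the strand setting are not stated there. The deposited count table gives raw counts for each gene symbol. The authors' deposited comparison holds DESeq2 log2 fold changes, p-values, a Wald score, and a signal, which is counts divided by a size factor; only the fold changes and p-values are printed.

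From the counts, edgeR 4.0.16 (R 4.3.3) kept 14679 genes by filterByExpr, scaled them by TMM and tested knockout over control with glmQLFit and glmQLFTest, with group as the only term and Benjamini-Hochberg adjustment over all tested genes. Intervals use the SE from the F statistic and are 95%. The script was tested on simulated data. In counts simulated with known changes, it called 31.8% of the 1.5-fold, 72.1% of the 2-fold and 98.4% of the 4-fold changes. Of its calls there, 9.03% were false. The test sees the spread between libraries, which may be partly technical, since separate embryos are not stated. Exon lengths, coordinates and sequences are from GENCODE M21 (GRCm38, the assembly mm10 names), which matched all 10 members.

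Named genes are all members, and in each other list the called genes and the 2 with the smallest p. Casp2, Casp6, Casp8, Casp9, Fadd, Tradd, Bcl2l13, Bcl2a1a, Bcl2a1c and Bcl2a1d were chosen after their values were seen. Some genes are not reported here, and the lists' counts leave them out. The members and lists were chosen with earlier results of these data known. Alternatives were DESeq2 size factors or total counts as scaling, no filter or a mean of at least 1 CPM, DESeq2 1.42.0, limma-voom (limma 3.58.1), a surrogate variable from sva 3.50.0, robust dispersion, the replicate number as a block, and leaving out each of the 7 libraries.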

Additional observations from a re-analysis of the deposited data

How the results depend on the processing

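Under all 16 alternatives 0 of the 10 members were called. All tested members kept their sign under all of them except Bak1, whose log2 fold change was -0.0066 without knockout replicate 1, -0.014 without knockout replicate 3 and -0.0020 without control replicate 3; leaving out single libraries gave -0.014 to 0.10 for it. Over all genes the number of calls was 82, and it became 382 with DESeq2, 136 with 1 surrogate variable and 228 without the low-count filter; leaving out single libraries gave 20 to 120. The 1 call among the other apoptosis genes reported became 4 with DESeq2 (Casp1, Casp4, Naip2 and Tnfrsf1b), 2 without the low-count filter (Casp1 and Tnfrsf1b), 0 with limma-voom, and 0 to 2 when single libraries were left out. The cause was not tested.

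Same-numbered libraries did not deviate together for numbers 2 and 3 (correlations across genes of -0.022 and -0.0052). For number 1 the correlation was 0.17, small but the highest of any knockout with any control. Since not every library correlated best with its own number, the numbers are not taken to pair them. With the replicate block 121 genes, 0 members and 0 of the other apoptosis genes reported were called; Casp1 had an adjusted p = 0.051 (edgeR). Low counts kept Bcl2a1b out of the test, with 13 over the knockouts and 15 over the controls, and why they were low was not tested. The intervals of Pmaip1 and Bcl2 include a 1.5-fold change.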
